A study of Homo sapiens with 4 samples.

Results

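The genes described here encode the machinery that degrades RNA in human cells, namely the RNA exosome, the nonsense-mediated decay (NMD) pathway, the deadenylases, the decapping enzymes with 5′-3′ decay, and the ZFP36 family. The members were listed by gene symbol according to function, and no measured value was used as a criterion, although earlier results of these data were known when the list was written. The list holds 47 of the 60675 genes annotated in the count files, of which 16 belong to the exosome, 9 to NMD, 11 to deadenylation, 8 to decapping and 5′-3′ decay and 3 to the ZFP36 family. The libraries come from LNCaP, a human prostate cancer cell line derived from a lymph node metastasis that responds to androgen. The cells were kept in phenol red-free medium with hormone-depleted serum and all of them received the synthetic androgen R1881 at 1 nM for 72 h. One group received the DMSO vehicle with R1881 (2 libraries) and the other CPI-455 at 50 µM with R1881 (2 libraries), and CPI-455 is an inhibitor of the KDM5 histone lysine demethylases. The question was how expression of the decay machinery differed with the inhibitor in the presence of androgen. No library without R1881 was analysed here, and all libraries come from 1 cell line.

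Most cytoplasmic mRNA decay begins with removal of the poly(A) tail by PAN2-PAN3 and the CCR4-NOT complex. The body of the message is then degraded from the 5′ end, after DCP2 removes the cap and XRN1 digests the RNA, or from the 3′ end by the RNA exosome, a barrel of EXOSC subunits to which a catalytic DIS3 subunit binds. NMD is a surveillance pathway in which UPF1, its partners UPF2 and UPF3 and the SMG proteins remove messages with a premature stop codon and also some normal messages. ZFP36 proteins bind AU-rich elements in 3′ UTRs and recruit CCR4-NOT.

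The vehicle libraries held 19623553 and 20690819 counted fragments and the CPI-455 libraries held 9522920 and 5401588 (replicates 1 and 2). Values are given as CPM, counts scaled to a common library size that was corrected with the TMM factors of edgeR. The nuclear non-coding RNA MALAT1 took 0.114% and 0.0884% of fragments with vehicle and 4.95% and 6.49% with CPI-455, and mitochondrially encoded RNA took 2.43% and 1.91% against 1.24% and 0.967%. Depth, MALAT1 and mitochondrial RNA thus moved with the group, and their part in the results was not tested. With TMM factors computed without the mitochondrial genes and MALAT1, 13 members were called lower and 10 higher. That setting changes only the scaling and leaves counts and depth as they were, so it cannot decide their part. All 8 luminal prostate markers examined (KLK3, KLK2, TMPRSS2, FOXA1, HOXB13, KRT8, KRT18 and FOLH1) had over 3 counts in every library. Their summed level was 854 and 785 CPM with vehicle and 375 and 423 CPM with CPI-455, and 5 of the 8 were called lower. Markers of basal epithelium, leukocytes and endothelium summed to 1.56 CPM or less in each library. The 4 fibroblast markers summed to 5.21 and 4.30 CPM with vehicle and 10.2 and 10.7 CPM with CPI-455. COL1A1 was called higher (105 and 88 counts with vehicle, 90 and 39 counts with CPI-455), COL1A2 had 15 counts in CPI-455 replicate 2 and at most 1 in the others, and COL3A1 and DCN had 0 to 6 counts. The part of fibroblast RNA in the results was not tested. In bulk samples, fewer cells of a type and less RNA per cell cannot be told apart.

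All 47 members passed the filter on low counts and were tested with edgeR's quasi-likelihood test, fitted on 17600 genes. A gene was called where its FDR (Benjamini-Hochberg over all genes tested) was below 0.05 and its change at least 2-fold. The log2 fold change is CPI-455 over vehicle, so that a negative value means lower expression with CPI-455. With CPI-455, 13 of the 47 members were called lower (27.7%), against 21.3% of all genes tested, and 10 were called higher (21.3%), against 21.0% of all genes tested. Together 23 members were called (48.9%), against 42.4%. Of the protein-coding genes tested, 24.4% were called lower and 15.6% higher, so the share of members called was near that of genes in general. At the FDR alone, with no minimum fold, 17 members were lower (32.8% of all genes) and 16 were higher (29.8%), and 14 did not pass, while 62.6% of all genes passed in either direction. The vehicle and CPI-455 libraries did not overlap for 41 of the 47 members (87.2%), against 81.9% of all genes tested. The median log2 fold change over the members was -0.20, that over all genes tested was -0.04 and that over the protein-coding genes tested was -0.21.

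The functional lists were unlike in which way their members lay. The median log2 fold change was 0.47 over the exosome genes (0.26 without CPI-455 replicate 1 and 0.28 when scaled by library totals alone), 0.01 over the NMD genes (-0.18 when scaled by library totals alone), -0.82 over the deadenylation genes, -0.85 over the decapping genes and 0.92 over the 3 ZFP36 genes. Of the deadenylation genes 45.5% were called lower and 18.2% higher, and of the decapping genes 50.0% were called lower and none higher. Of the exosome genes 12.5% were called lower and 18.8% higher, and of the NMD genes 22.2% and 44.4%. The shares of all genes tested were 21.3% lower and 21.0% higher. The deadenylation and decapping shares depended on the trend of fold change with exon length and GC content, described below. With it removed, 3214 of all genes were called lower in place of 3756. Of the deadenylation genes only CNOT6 and CNOT6L were then called lower, with CNOT3 and PAN2 still higher. Of the decapping genes only DDX6 and EDC3 were called lower. The medians of these lists were then -0.34 and -0.59. These are shares and medians of short lists written with earlier results in view, and no test was made of a list.

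**Figure D1:**
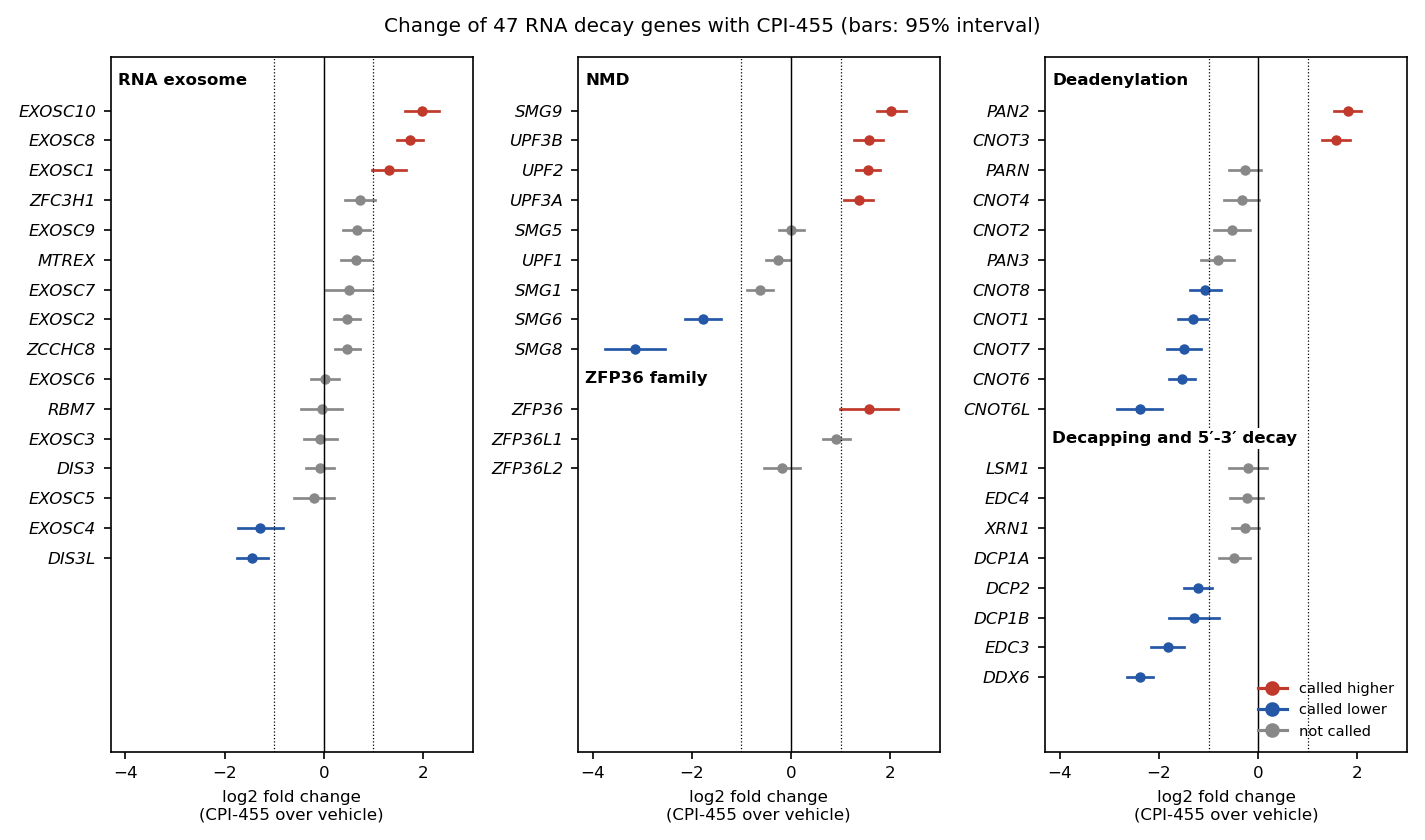
Log2 fold change (CPI-455 over vehicle, x axis) of each of the 47 genes, by function, with the 95% interval of the edgeR fit as a bar, a solid line at no change and dotted lines at 2-fold. Called genes lie on both sides among the exosome and NMD genes, while all 8 decapping and 5′-3′ decay genes lie below 0, with 4 called lower (XRN1 lies above 0 with the length and GC trend removed).

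Fold changes varied with exon length and GC content. Across the 47 members, the Spearman correlation of the log2 fold change with annotated exon length was -0.26 and with exon GC content 0.19. The values were -0.25 and 0.15 across the 17592 tested genes with both values, and -0.14 and 0.19 across the protein-coding ones. Genes are not independent replicates, and these correlations describe the same 4 libraries. When a smooth trend on length and GC content was removed from each library, 8 members were called lower in place of 13, and 14 were called higher in place of 10. CNOT1, CNOT7, CNOT8, DCP1B and DCP2 were no longer called lower, their log2 fold changes lying between -0.96 (CNOT7) and -0.68 (DCP2), and each still had an FDR below 0.05 by edgeR's quasi-likelihood test. EXOSC9, MTREX, ZFC3H1 and ZFP36L1 became called higher. Among members under 2-fold, CNOT2, PAN3 and DCP1A no longer passed the FDR, while EXOSC6, EXOSC7, DIS3 and RBM7 passed it upward and EXOSC5 and LSM1 downward. The list medians became 0.72 for the exosome, -0.34 for deadenylation and -0.59 for decapping. Whether the trend comes from the libraries or the treatment cannot be told apart.

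**Figure D2:**
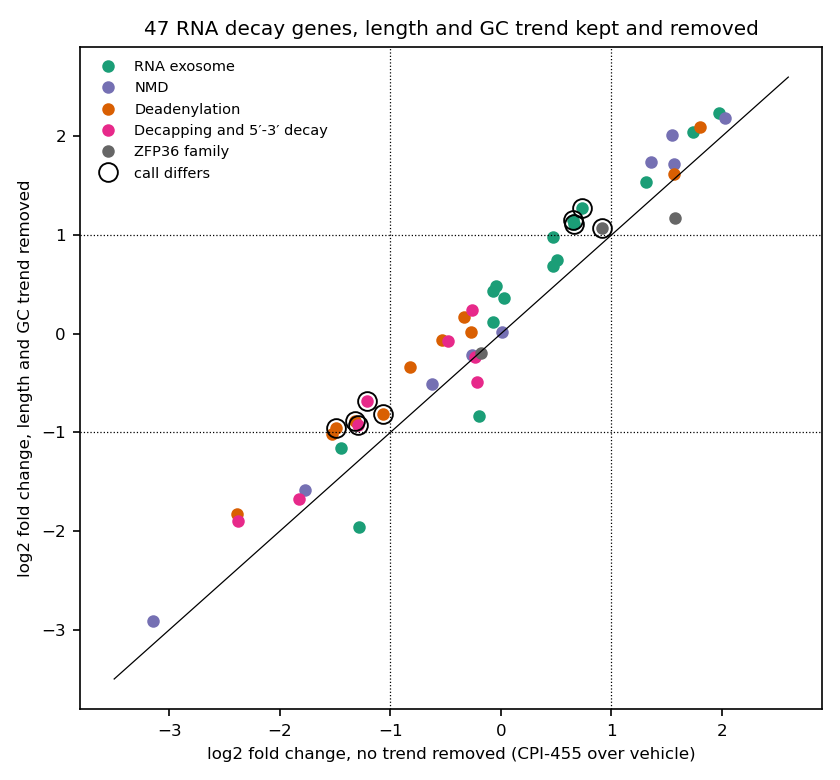
Log2 fold change of the 47 genes with the length and GC trend kept (x axis) and removed (y axis), coloured by function, with a solid line where both are equal and dotted lines at 2-fold. Black rings mark the 9 genes whose call differed, of which 5 were no longer called lower and 4 became called higher, and most points lie above the line of equality.

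All 4 catalytic subunits of CCR4-NOT, CNOT6, CNOT6L, CNOT7 and CNOT8, were called lower (CNOT6 and CNOT6L with the length and GC trend removed), each with the CPI-455 libraries below both vehicle libraries. CNOT6 and CNOT6L are paralogous exonucleases of the EEP type, and CNOT7 and CNOT8 are paralogous exonucleases of the DEDD type. CNOT6L stood at 90.6 and 103 CPM with vehicle (1914 and 2239 counts) and at 21.9 and 13.9 CPM with CPI-455 (195 and 70 counts). Its expression fell 5.25-fold (log2 fold change -2.39 ± 0.20 SE, FDR 9.26e-06 by edgeR's quasi-likelihood test), the largest decrease among the deadenylation genes. CNOT6 stood at 195 and 197 CPM with vehicle and at 67.5 and 68.0 CPM with CPI-455, a 2.89-fold decrease with near-equal values within each group (log2 fold change -1.53 ± 0.11 SE). CNOT7 had 106 and 107 CPM with vehicle against 42.5 and 31.7 CPM with CPI-455 (2.82-fold lower). CNOT8 had 70.5 and 72.1 CPM against 34.1 and 34.1 CPM (2.09-fold lower), just over the 2-fold threshold, and with upper-quartile normalisation its log2 fold change was -0.89 and it was not called.

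Per kilobase of annotated exon, which allows levels to be compared between genes, CNOT6 was the highest of the catalytic subunits with vehicle at 29.7 CPM per kb, followed by CNOT8 at 18.1, CNOT6L at 10.3 and CNOT7 at 9.69 CPM per kb. With CPI-455 the order was CNOT6 at 10.3, CNOT8 at 8.67, CNOT7 at 3.39 and CNOT6L at 1.91 CPM per kb. CNOT6L and CNOT7 were thus close to each other with vehicle and CNOT6L was the lower of them with CPI-455. Within single libraries, CPM of CNOT6 over CNOT6L was 2.15 and 1.92 with vehicle, against 3.08 and 4.90 with CPI-455. The ratio of CNOT7 over CNOT8 went the other way, at 1.496 and 1.477 with vehicle, against 1.25 and 0.930 with CPI-455. Neither pair of groups overlapped.

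CNOT1, the scaffold on which the CCR4-NOT complex is built, was the most abundant deadenylation member with vehicle by CPM per kb. It stood at 377 and 431 CPM with vehicle and at 175 and 147 CPM with CPI-455, and fell 2.51-fold (FDR 2.29e-05, edgeR's quasi-likelihood test). CNOT3, a non-catalytic subunit that binds the same scaffold, went the opposite way. It had 50.7 and 54.4 CPM with vehicle and 164 and 147 CPM with CPI-455, which is 2.96-fold higher (log2 fold change 1.56 ± 0.12 SE, FDR 6.65e-06, edgeR's quasi-likelihood test). CNOT2, the partner of CNOT3 in the complex, had 65.3 and 65.4 CPM against 51.4 and 38.1 CPM (log2 fold change -0.53, FDR 0.0169 by edgeR's quasi-likelihood test, under 2-fold), which became -0.07 (FDR 0.757) with the length and GC trend removed and missed the FDR with upper-quartile normalisation (0.0759). CNOT4, an E3 ubiquitin ligase associated with the complex, had a log2 fold change of -0.34 and an FDR of 0.0863 in the same test. Across the 8 CNOT genes, 5 were called lower and 1 higher, where 21.3% of all genes tested were called lower and 21.0% higher. With the length and GC trend removed, CNOT1, CNOT7 and CNOT8 were no longer called lower, at -0.89, -0.96 and -0.81. CNOT6 and CNOT6L were still called lower in that setting and CNOT3 still higher.

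PAN2 and PAN3 form the other cytoplasmic deadenylase, in which PAN2 is the nuclease and PAN3 binds the RNA and the poly(A)-binding protein. PAN2 stood at 142 and 139 CPM with vehicle and at 531 and 448 CPM with CPI-455. It rose 3.49-fold (log2 fold change 1.80 ± 0.12 SE, FDR 2.81e-06, edgeR's quasi-likelihood test), the largest increase among the deadenylation genes. PAN3 had 72.1 and 63.9 CPM with vehicle and 36.0 and 41.4 CPM with CPI-455, a log2 fold change of -0.82 that passed the FDR (0.00103, edgeR's quasi-likelihood test) but not 2-fold, that was called at -1.01 when scaled by library totals alone, and that became -0.34 and missed the FDR (0.0514) with the length and GC trend removed. CPM of PAN2 over PAN3 was 1.97 and 2.17 in the vehicle libraries and 14.8 and 10.8 in the CPI-455 libraries. PARN, a poly(A)-specific ribonuclease that acts largely on non-coding RNA, had 64.6 and 69.1 CPM against 50.8 and 60.9 CPM and did not pass (FDR 0.128, edgeR's quasi-likelihood test).

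**Figure D3:**
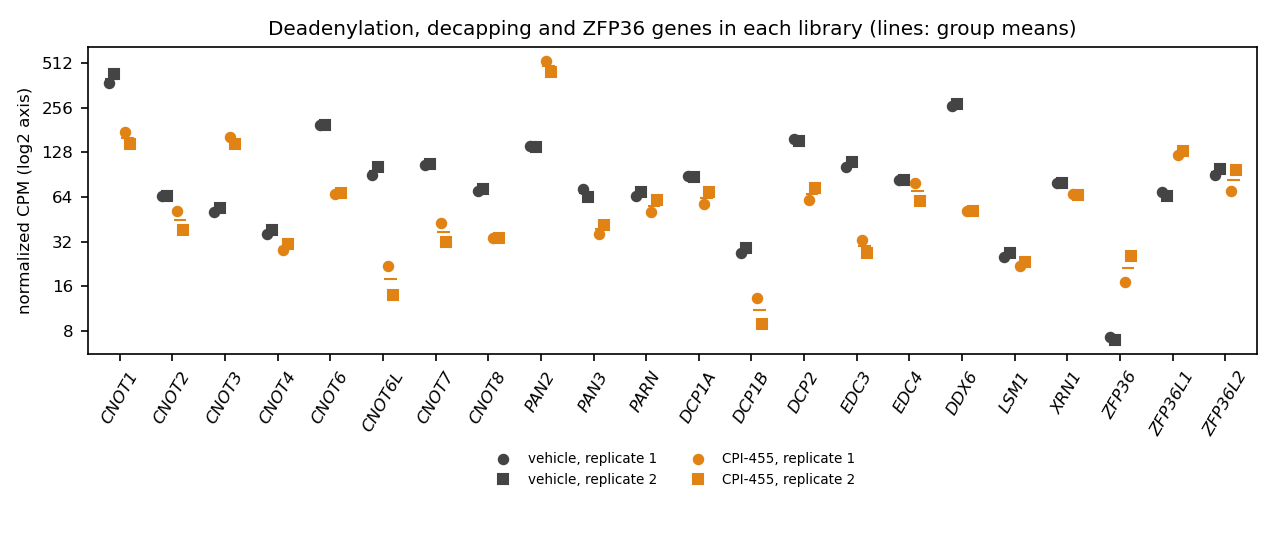
Normalised CPM on a log2 axis of the deadenylation, decapping and 5′-3′ decay, and ZFP36 genes in each of the 4 libraries (circles replicate 1, squares replicate 2, grey vehicle, orange CPI-455), with short lines at the group means. The orange symbols of CNOT6L and DDX6 lie furthest below the grey ones, those of PAN2 and CNOT3 lie above, and those of ZFP36L2 overlap them.

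Of the 8 genes of decapping and 5′-3′ decay, 4 were called lower and none higher, and with the length and GC trend removed DDX6 and EDC3 were called lower. The largest difference was in DDX6, a DEAD-box helicase that links CCR4-NOT to decapping and is a component of P-bodies. DDX6 stood at 266 and 272 CPM with vehicle (5611 and 5948 counts) and at 51.8 and 51.6 CPM with CPI-455 (461 and 260 counts). It fell 5.202-fold (log2 fold change -2.38 ± 0.12 SE) and had an FDR of 7.52e-07 by edgeR's quasi-likelihood test, the lowest of the 47 members. EDC3, an enhancer of decapping that binds DDX6 and DCP2, had 103 and 111 CPM with vehicle and 33.0 and 26.8 CPM with CPI-455, and fell 3.54-fold. DCP2, the decapping nuclease, had 159 and 153 CPM with vehicle and 61.6 and 73.4 CPM with CPI-455 and fell 2.32-fold.

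The DCP1 paralogs, which activate DCP2, were not alike. DCP1B had 26.7 and 29.1 CPM with vehicle and 13.3 and 8.92 CPM with CPI-455, where it rested on 118 and 45 counts, and fell 2.45-fold. DCP1A had 88.6 and 87.0 CPM against 57.2 and 69.4 CPM, a log2 fold change of -0.48 (FDR 0.0125, edgeR's quasi-likelihood test, under 2-fold), which became -0.07 (FDR 0.607) with the length and GC trend removed and missed the FDR with upper-quartile normalisation (0.0809). CPM of DCP1A over DCP1B was 3.33 and 2.99 with vehicle, against 4.31 and 7.78 with CPI-455. The remaining members did not pass the FDR in the same test. EDC4, a scaffold of decapping, had a log2 fold change of -0.24 (FDR 0.197), LSM1, of the LSM1-7 ring that binds deadenylated 3′ ends, -0.21 (FDR 0.305), and XRN1, the 5′-3′ exonuclease, -0.26 (FDR 0.0900). For XRN1 the 95% interval ran from -0.53 to 0.02. Of the annotated exon bases, 38.5% of LSM1 and 22.6% of EDC4 are shared with exons of other genes, so their levels are less sure.

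Among the 16 exosome genes, 3 were called higher and 2 lower, and 5 more were higher at the FDR but under 2-fold. The catalytic subunits were not changed alike. EXOSC10, the nuclear exoribonuclease of the complex (also known as RRP6), stood at 64.2 and 55.0 CPM with vehicle and at 265 and 203 CPM with CPI-455, and rose 3.93-fold (log2 fold change 1.98 ± 0.15 SE, FDR 6.41e-06, edgeR's quasi-likelihood test). Of the annotated exon bases of EXOSC10, 39.3% are shared with exons of other genes, and fragments there were not counted, so its level is less sure. DIS3L, the cytoplasmic DIS3 paralog, stood at 117 and 114 CPM with vehicle and at 38.8 and 46.6 CPM with CPI-455, and fell 2.72-fold (log2 fold change -1.44 ± 0.14 SE, FDR 1.94e-05, edgeR's quasi-likelihood test). DIS3, the mainly nuclear paralog, had 198 and 216 CPM with vehicle and 181 and 214 CPM with CPI-455, so that the groups overlapped (log2 fold change -0.07, FDR 0.631, edgeR's quasi-likelihood test; 95% interval -0.35 to 0.21), and with the length and GC trend removed it passed the FDR upward at 0.44 (FDR 0.00283), under 2-fold. CPM of DIS3 over DIS3L was 1.69 and 1.91 with vehicle, against 4.66 and 4.59 with CPI-455.

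The barrel of the exosome is formed by a ring of 6 RNase PH-like subunits (EXOSC4 to EXOSC9) and a cap of 3 RNA-binding subunits (EXOSC1 to EXOSC3). Of these 9 genes, 2 were called higher and 1 lower. EXOSC8 had 75.9 and 71.2 CPM with vehicle and 242 and 249 CPM with CPI-455 and rose 3.34-fold (FDR 2.44e-06, edgeR's quasi-likelihood test). EXOSC1 had 23.6 and 23.5 CPM with vehicle and 62.2 and 54.5 CPM with CPI-455 and rose 2.48-fold. EXOSC4 had 40.5 and 43.0 CPM with vehicle and 20.1 and 13.5 CPM with CPI-455, where it rested on 179 and 68 counts, and fell 2.43-fold. With the length and GC trend removed its log2 fold change was -1.96 in place of -1.28, and 24.4% of its exon bases are shared with other genes.

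EXOSC2 and EXOSC9 passed the FDR in the upward direction at log2 fold changes of 0.47 and 0.66. EXOSC9 had 92.0 and 92.6 CPM with vehicle and 155 and 136 CPM with CPI-455. EXOSC7 had 22.01 and 22.67 CPM against 37.5 and 25.2 CPM and missed the FDR (0.0552, edgeR's quasi-likelihood test). EXOSC3, EXOSC5 and EXOSC6 had log2 fold changes of -0.07, -0.20 and 0.03, and for EXOSC5 and EXOSC6 the groups overlapped. The subunits of the barrel, which occur together in the assembled complex, therefore ranged from -1.28 to 1.74 on the log2 scale. The 4 nuclear cofactors, which deliver RNA to the exosome, included none past 2-fold. MTREX, the helicase, had 70.4 and 78.1 CPM with vehicle and 127 and 105 CPM with CPI-455 (log2 fold change 0.65), ZFC3H1, of the poly(A) tail exosome targeting connection, had 38.3 and 37.6 CPM against 63.9 and 62.1 CPM (0.73), and ZCCHC8, of the nuclear exosome targeting complex, had 101 and 105 CPM against 143 and 143 CPM (0.47). All 3 passed the FDR by edgeR's quasi-likelihood test, and with the length and GC trend removed MTREX and ZFC3H1 were called higher at 1.16 and 1.27. RBM7, the RNA-binding partner of ZCCHC8, overlapped between the groups, with 28.3 and 30.6 CPM against 24.9 and 32.9 CPM.

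**Figure D4:**
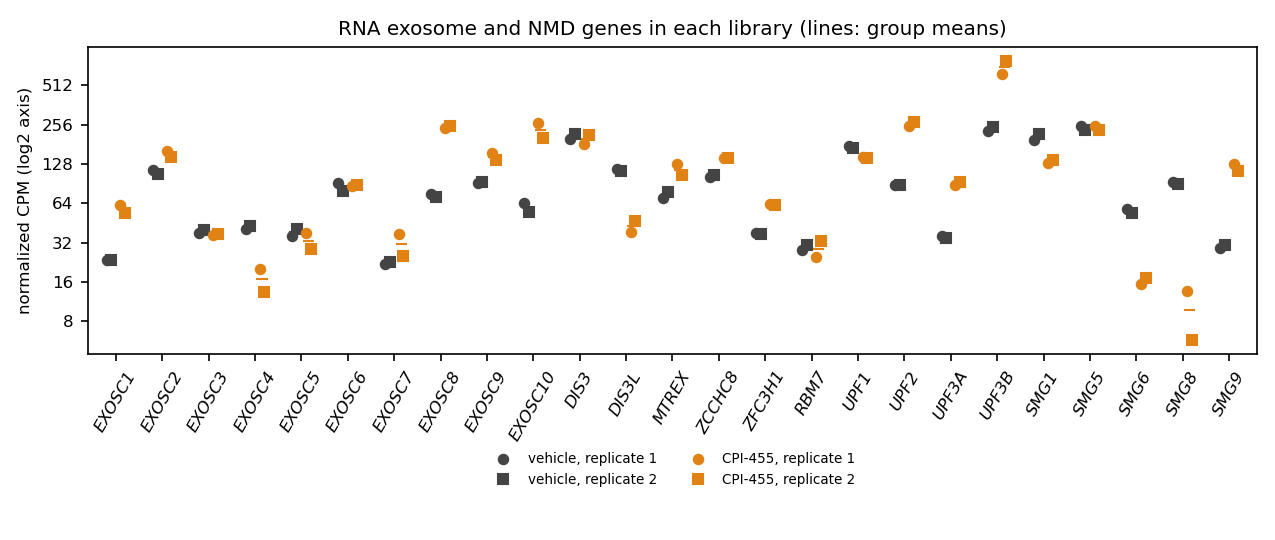
Normalised CPM on a log2 axis of the 16 exosome and 9 NMD genes in each of the 4 libraries (circles replicate 1, squares replicate 2, grey vehicle, orange CPI-455), with short lines at the group means. The CPI-455 libraries lie above the vehicle libraries for EXOSC8, EXOSC10, UPF2, UPF3A, UPF3B and SMG9 and below them for DIS3L, SMG6 and SMG8, with SMG8 at 13.7 and 5.75 CPM.

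The NMD genes divided into UPF genes, of which 3 of 4 were called higher, and SMG genes, of which 2 of 5 were called lower and 1 higher. UPF2, the bridge between UPF1 and UPF3, had 88.3 and 88.8 CPM with vehicle and 252 and 267 CPM with CPI-455, and rose 2.93-fold (log2 fold change 1.55 ± 0.11 SE, FDR 3.87e-06, edgeR's quasi-likelihood test). The UPF3 paralogs, which connect UPF2 to the exon junction complex, rose by near amounts. UPF3A went from 35.9 and 34.7 CPM to 89.0 and 92.8 CPM (2.57-fold higher), and UPF3B, on the X chromosome, from 230 and 247 CPM to 626 and 787 CPM (2.96-fold higher). CPM of UPF3B over UPF3A was 6.40 and 7.12 with vehicle, against 7.04 and 8.48 with CPI-455, and these ranges overlapped. UPF3B was the highest of the 47 members per kilobase in both groups, at 94.2 CPM per kb with vehicle and 279 CPM per kb with CPI-455. UPF3A has 3 annotated pseudogene copies, and fragments that matched several places were not counted, so its level is less sure. UPF1, the helicase at the centre of the pathway, had 177 and 169 CPM with vehicle and 145 and 143 CPM with CPI-455 and missed the FDR (log2 fold change -0.26, FDR 0.0625, edgeR's quasi-likelihood test).

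SMG8 and SMG9 bind each other and hold the kinase SMG1, which phosphorylates UPF1, in check. They went in opposite directions. SMG8 had 1976 and 1971 counts with vehicle (93.6 and 90.3 CPM) and 122 and 29 counts with CPI-455 (13.7 and 5.75 CPM). It fell 8.86-fold (log2 fold change -3.15 ± 0.27 SE, FDR 1.13e-05, edgeR's quasi-likelihood test), the largest difference among the 47 members, though its CPI-455 libraries differed 2.39-fold from each other. Without CPI-455 replicate 1 its log2 fold change was -4.02 and without CPI-455 replicate 2 it was -2.79. SMG9 had 29.1 and 30.8 CPM with vehicle and 129 and 114 CPM with CPI-455, and rose 4.07-fold (log2 fold change 2.02 ± 0.13 SE, FDR 2.49e-06, edgeR's quasi-likelihood test), the largest increase among the members.

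SMG1 had 196 and 218 CPM with vehicle and 130 and 138 CPM with CPI-455, a log2 fold change of -0.63 that passed the FDR but not 2-fold. SMG1 has 7 annotated pseudogene copies, of which 6 had enough counts to be tested, and it is one of the less surely counted members. SMG6, the endonuclease that cuts NMD targets near the stop codon, had 57.6 and 53.7 CPM with vehicle and 15.5 and 17.3 CPM with CPI-455, and fell 3.42-fold (FDR 1.54e-05, edgeR's quasi-likelihood test), with 25.4% of its exon bases shared with other genes. SMG5, which links NMD targets to deadenylation and decapping, had 249 and 232 CPM with vehicle and 249 and 233 CPM with CPI-455, near-equal values whose 95% interval for the log2 fold change ran from -0.24 to 0.25.

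The 3 ZFP36 genes had unlike changes. ZFP36 (tristetraprolin) was the lowest of the 47 members per kilobase with vehicle, at 3.52 CPM per kb. It had 7.24 and 6.91 CPM with vehicle (153 and 151 counts) and 17.2 and 25.6 CPM with CPI-455 (153 and 129 counts), and rose 2.98-fold (log2 fold change 1.58 ± 0.26 SE, FDR 5.73e-04, edgeR's quasi-likelihood test). ZFP36L1 had 69.4 and 65.3 CPM with vehicle and 123 and 131 CPM with CPI-455, a log2 fold change of 0.92 just under 2-fold, and with upper-quartile normalisation it was called at 1.09. ZFP36L2 had 89.6 and 98.4 CPM with vehicle and 70.3 and 97.2 CPM with CPI-455, where the groups overlapped (FDR 0.361, edgeR's quasi-likelihood test). CPM of ZFP36L2 over ZFP36 was 12.4 and 14.2 with vehicle, against 4.085 and 3.798 with CPI-455. ZFP36L2 over ZFP36L1 was 1.29 and 1.51 with vehicle, against 0.571 and 0.740 with CPI-455, so that ZFP36L1 had fewer CPM than ZFP36L2 in both vehicle libraries and more in both CPI-455 libraries.

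ZFP36 proteins bind the sequence UAUUUAU, and the 3′ UTRs of the ZFP36 genes themselves hold it. In the 3′ UTRs of GENCODE release 44, taken in transcript orientation, TATTTAT occurs in 20 of the 47 members (42.6%), in 35.9% of the tested protein-coding genes and in 17 of 20 of the known AU-rich element transcripts listed below (85.0%). It occurs in 4 of the 10 members called higher and in 6 of the 13 called lower, whose 3′ UTRs have median lengths of 691 and 1649 bases. ZFP36, ZFP36L1 and ZFP36L2 hold 3 copies each. One site of each is shown, 5′ to 3′ on the gene's strand (GRCh38), because these genes encode the binding proteins and carry their motif, which stands in capitals. They lie at chr19:39409181-39409210 (+), chr14:68788335-68788364 (-) and chr2:43223447-43223476 (-).
ZFP36: aatgggcccttTATTTATgacgactttatt
ZFP36L1: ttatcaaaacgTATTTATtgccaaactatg
ZFP36L2: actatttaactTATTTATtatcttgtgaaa
Each holds the heptamer in an AT-rich stretch, and the match is a description of the letters and not a measurement of binding.

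KDM5 demethylases act on a histone mark of promoters, so the promoters of members that rose and fell are shown side by side. RefSeq promoter sequences (GRCh38.p14) were matched for 40 of the 47 members, CNOT1, CNOT7, EXOSC1, EXOSC4, LSM1, SMG8 and ZFP36L2 having no entry used here. The window ran from 250 to 51 bases before the gene start in RefSeq, which can differ from the start in the count files (for CNOT6L it lies further upstream), and motifs were searched on both strands. The GC box (GGGCGG) occurred in 67.5% of the members' windows, against 54.9% of the windows of genes tested and 34.7% of all promoters. It occurred in 7 of the 9 matched members called higher and in 6 of the 9 called lower. The CCAAT box occurred in 40.0% of the members' windows and in 30.1% of those of genes tested, with 5 of 9 among members called higher and 2 of 9 among those called lower. The ETS motif (CCGGAAG) occurred in 4 of the 40 members' windows (10.0%) and in 8.58% of those of genes tested, and the E box (CACGTG) in 3 (7.5%) and in 6.32%. The NRF1 motif (GCATGCGC) and the TATA box (TATAAA) each occurred in 1 member's window, and those of YY1 (AAGATGGC), of the cAMP response element (TGACGTCA) and of the heat shock element in none, against 2.89%, 3.54%, 1.56%, 1.6% and 0.265% of the windows of genes tested in the same order. The median GC content of the window was 64.0% for members called higher, 61.5% for those called lower and 64.0% for genes tested. The windows of UPF2 and UPF3A, both called higher, and of CNOT6 and CNOT6L, both called lower, are printed 5′ to 3′ on the gene's strand, with matches on either strand in capitals, for the GC box and the CCAAT box and also for the E box of UPF2 and the ETS motif of UPF3A. They lie at chr10:12043221-12043420 (-), chr13:114281351-114281550 (+), chr5:180494129-180494328 (+) and chr4:77820320-77820519 (-).
UPF2: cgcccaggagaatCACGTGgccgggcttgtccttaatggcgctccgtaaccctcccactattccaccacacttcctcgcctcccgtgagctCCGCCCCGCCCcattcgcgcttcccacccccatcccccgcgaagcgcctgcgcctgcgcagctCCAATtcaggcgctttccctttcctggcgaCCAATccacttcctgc
UPF3A: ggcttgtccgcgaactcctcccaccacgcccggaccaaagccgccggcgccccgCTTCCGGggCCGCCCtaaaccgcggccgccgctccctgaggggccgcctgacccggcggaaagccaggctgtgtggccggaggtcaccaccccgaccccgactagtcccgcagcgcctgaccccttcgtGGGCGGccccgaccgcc
CNOT6: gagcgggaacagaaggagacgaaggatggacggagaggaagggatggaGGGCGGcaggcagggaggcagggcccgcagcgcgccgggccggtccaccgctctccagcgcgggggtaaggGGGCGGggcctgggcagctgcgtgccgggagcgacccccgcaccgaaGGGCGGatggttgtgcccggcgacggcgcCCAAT
CNOT6L: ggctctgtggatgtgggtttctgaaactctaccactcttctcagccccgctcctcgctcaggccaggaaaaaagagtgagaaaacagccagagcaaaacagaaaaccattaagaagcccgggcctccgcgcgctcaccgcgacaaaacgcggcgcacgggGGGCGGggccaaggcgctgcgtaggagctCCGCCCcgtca
All 4 windows hold GC boxes, whether the gene rose or fell. No binding or histone mark was measured in these libraries.

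Other genes of the same pathways were taken from 5 further lists of 72 genes in all. Of these, 12 were called lower (16.7%) and 9 higher (12.5%), below the 21.3% and 21.0% of all genes tested. Among 18 other exosome and Ski factors, 4 were called higher (22.2%) and 1 lower (5.56%), with a median log2 fold change of 0.22. NRDE2, a nuclear regulator of the exosome helicase, rose (37.2 and 35.9 CPM with vehicle, 140 and 137 CPM with CPI-455), as did PABPN1, the nuclear poly(A)-binding protein (121 and 116 against 445 and 424 CPM). The level of NRDE2 is less sure, as 26.6% of its exon bases are shared with other genes. SKIC2, the helicase of the cytoplasmic Ski complex, rose as well (47.4 and 37.5 against 169 and 128 CPM). HBS1L, a ribosome rescue factor, fell, from 161 and 178 CPM to 66.6 and 77.3 CPM. The gene of the cytoplasmic Ski helicase was thus higher where that of the cytoplasmic DIS3L nuclease was lower. DIS3L2, another DIS3 paralog, and SKIC8, of the Ski complex, were higher at the FDR but under 2-fold (log2 fold changes 0.94 and 0.90). SKIC3, also of the Ski complex, did not pass (0.23).

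Among 13 other NMD and exon junction factors, 2 were called lower (15.4%) and 1 higher (7.69%), with a median of -0.10. ETF1, the translation release factor, had 257 and 262 CPM with vehicle and 104 and 123 CPM with CPI-455 (log2 fold change -1.20), and NBAS, of a local NMD pathway at the endoplasmic reticulum, 39.6 and 47.7 CPM against 24.7 and 17.9 CPM (-1.01). PNRC2, which joins UPF1 to DCP1A, was called higher at 1.07. Among 14 other deadenylation factors, 2 were called lower (14.3%) and none higher (median -0.70). The 2 were NOCT (-1.31) and ANGEL2 (-1.18), both of the same nuclease family as CNOT6.

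Among 14 other decapping factors, 3 were called higher (21.4%) and none lower, where 21.0% of all genes tested were called higher and 21.3% lower. The share called higher was thus near that of all genes. The median log2 fold change of the 14 was 0.52, beside the -0.85 of the 8 decapping members. The 3 called higher encode LSM ring proteins, which serve both the cytoplasmic LSM1-7 ring and the nuclear LSM2-8 ring of U6 snRNA. LSM7 went from 45.59 and 47.02 CPM to 134 and 139 CPM, LSM3 from 46.4 and 44.9 CPM to 117 and 132 CPM, and LSM5 from 56.6 and 61.7 CPM to 106 and 135 CPM. LSM5 was just over 2-fold (log2 fold change 1.02). LSM1, specific to the cytoplasmic ring, did not pass, and its level is less sure, as given above.

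Among 13 mRNA-binding decay factors, 7 were called lower (53.8%) and 1 higher (7.69%), beside 21.3% and 21.0% of all genes tested. Their median log2 fold change was -1.17. The median exon length of this list was 7063 bases, against 4292 over all genes tested. The further lists were not read with the length and GC trend removed. YTHDF2, which binds N6-methyladenosine and recruits CCR4-NOT, had 591 and 624 CPM with vehicle and 134 and 134 CPM with CPI-455 (log2 fold change -2.18 ± 0.11 SE). STAU1, of Staufen-mediated decay, had 245 and 266 CPM against 61.6 and 51.4 CPM (-2.17 ± 0.13 SE), and RC3H2, a roquin that binds stem-loops in 3′ UTRs, 156 and 156 CPM against 57.8 and 52.6 CPM (-1.497 ± 0.121 SE). These 3 were named because their decreases were the largest of the list. HNRNPD (AUF1), which binds AU-rich elements, rose from 284 and 276 CPM to 986 and 1116 CPM.

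**Figure D5:**
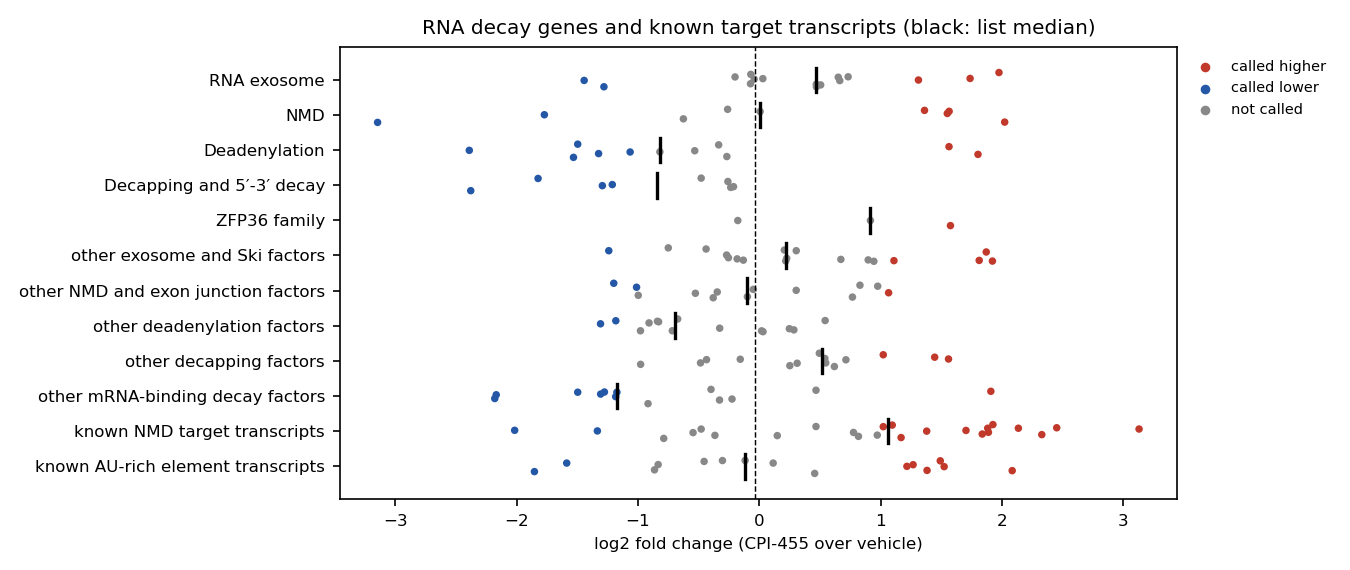
Log2 fold change (CPI-455 over vehicle, x axis) of every tested gene of the 5 member lists, 5 further factor lists and 2 lists of target transcripts, with a black bar at each list's median and a dashed line at the median of all genes tested (-0.04). The deadenylation, decapping and mRNA-binding factor lists have medians of -0.82, -0.85 and -1.17. The other decapping factors have a median of 0.52 and the known NMD target transcripts 1.06. PTGS2 and BIRC3, with at most 1 count with CPI-455, are not drawn.

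Genes with transcripts known to be degraded by these pathways were read from the same fit. Counts were taken over all exons of a gene, so a form that NMD degrades was not told apart from its other forms. The paper reports altered splicing with CPI-455, and its part in these values was not tested. Of 24 known NMD target transcripts, 13 were called higher (54.2%) and 2 lower (8.33%), with a median log2 fold change of 1.06, beside 21.0% and 21.3% of all genes tested. DDIT3, a stress-induced transcription factor, had 25.8 and 30.1 CPM with vehicle and 274 and 215 CPM with CPI-455 (log2 fold change 3.13 ± 0.16 SE). SNHG1, a small nucleolar RNA host gene, went from 171 and 152 CPM to 868 and 899 CPM (2.45 ± 0.11 SE), and ATF3, a stress-induced transcription factor, from 343 and 347 CPM to 1718 and 1749 CPM (2.33 ± 0.10 SE). TBL2 fell from 87.5 and 88.7 CPM to 22.04 and 21.42 CPM (-2.02), and TMEM33 fell by 1.34 on the log2 scale. Several of these transcripts are also induced by cellular stress through ATF4, and transcript stability was not measured, so synthesis and decay cannot be told apart.

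Of 20 known AU-rich element transcripts, 17 were tested, of which 6 were called higher (35.3%) and 4 lower (23.5%), with a median log2 fold change of -0.12. JUN, a transcription factor of the AP-1 complex, went from 442 and 442 CPM to 1942 and 1811 CPM. DUSP1, a phosphatase of MAP kinases, went from 53.0 and 42.3 CPM to 129 and 140 CPM, and IER2, an immediate early gene, from 38.7 and 30.2 CPM to 83.1 and 97.2 CPM. The level of IER2 is less sure, as 30.8% of its exon bases are shared with other genes. CDKN1A, a cell cycle inhibitor, fell from 124 and 130 CPM to 38.4 and 31.3 CPM, and CCND1, encoding cyclin D1, from 45.5 and 40.0 CPM to 14.6 and 13.7 CPM. The other 2 called lower were PTGS2 and BIRC3, with 23 and 34 and with 26 and 35 counts with vehicle. They had 0 or 1 count in each CPI-455 library, too few for the size of their fitted fold changes to be relied on. Both are included in the counts and the median of the list. Called transcripts of this list thus lay on both sides. Binding by ZFP36 proteins was not measured.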

How the data were processed

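RNA-seq was analysed for 4 LNCaP libraries, 2 per group, grouped by the sample labels. The methods call them biological replicates, and no source used here says whether the cultures were grown apart, so p-values measure the spread between these libraries. Per the methods and file headers, the authors used Trim Galore, the STAR aligner (GRCh38) and featureCounts v1.5.0-p1 with the Ensembl 83 annotation. They deposited raw fragment counts, with multi-mapping and multi-overlapping fragments left out and strand not used. RNA selection is not given in the sources used here.

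Counts were tested with edgeR 4.0.16 in R 4.3.3 (TMM, filterByExpr with a minimum of 10 counts, glmQLFit and glmQLFTest without covariates, Benjamini-Hochberg over 17600 genes). The common biological coefficient of variation was 0.126. The script was tested on simulated data. Members and lists were chosen with earlier results of these data known. All 47 members are named, and of other lists up to 3 called genes in each direction with the largest change where the mean log2 CPM was 3 or more. PTGS2, BIRC3, DIS3L2, SKIC3, SKIC8 and the fibroblast markers are named after their values were seen. Some genes of the marker and factor lists are not reported here and were left out of the lists' counts. Symbols were matched for 56558 genes. Alternatives were other normalisations and filters, DESeq2 1.42.0, edgeR's likelihood-ratio test and glmTreat, a replicate block, a length and GC trend (mgcv 1.9.3), and leaving out each library. One fragment was worth 0.0473 and 0.0458 CPM with vehicle and 0.113 and 0.198 CPM with CPI-455. Intervals cover the spread in the fit, and counting limits cover counting error only.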

Additional observations from a re-analysis of the deposited data

How the results depend on the processing

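The calls were recomputed under 15 other settings. Call and direction held in all of them for 28 of the 47 members and for 18 of the 23 called ones, and no called member changed sign (glmTreat and the FDR alone are not among the 15). Of the members under 2-fold, EXOSC2, ZCCHC8, CNOT2, PAN3 and DCP1A missed the FDR in at least 1 setting, and EXOSC5, EXOSC6, EXOSC7, DIS3, RBM7, UPF1, CNOT4, PARN, EDC4, LSM1, XRN1 and ZFP36L2 passed it in at least 1. No source used here says whether same-numbered libraries were paired. Their deviations had a correlation of 0.04, which cannot decide this with 2 libraries per group. With the replicate block, 13 members were lower and 10 higher. Members called lower numbered 8 with the length and GC trend removed, with or without the block, and 16 were called higher with no minimum fold. With glmTreat, 9 members were called lower and 10 higher. Over all genes, glmTreat called 2350 lower and 2455 higher, and 5767 were lower with no minimum fold. Upper-quartile normalisation moved the median of all genes by 0.17, library totals by -0.19 and no filter by -0.15. In that order, the medians were 0.65, 0.28 and 0.32 for the exosome, 0.18, -0.18 and -0.15 for NMD, -0.64, -1.01 and -0.97 for deadenylation and -0.67, -1.04 and -0.999 for decapping. With the length and GC trend removed, without and with the block, they were 0.72 and 0.70 for the exosome, -0.34 and -0.34 for deadenylation and -0.59 and -0.58 for decapping, which was also -0.83 with RLE, -0.80 with at least 10 counts per library and -0.89 with DESeq2.

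Members near 0 changed sign. EXOSC3 was 0.11 with upper quartile and with the trend removed, without and with the block. In the same order, DIS3 was 0.10, 0.44 and 0.44 and RBM7 0.13, 0.49 and 0.49 (0.0029 with the count minimum). Under library totals, no filter and DESeq2, EXOSC6 was -0.16, -0.13 and -0.013 and SMG5 -0.18, -0.15 and -0.035. With the trend removed, without and with the block, CNOT4 was 0.17 and 0.17, PARN 0.019 and 0.021 and XRN1 0.24 and 0.24. Leaving out 1 library, where the lone library of a group is assumed to vary like the other group, gave -0.094 to 0.11 for EXOSC6, -0.24 to 0.027 for DIS3, -0.29 to 0.14 for RBM7, -0.070 to 0.036 for SMG5 and -0.46 to 0.029 for ZFP36L2. The medians were then 0.26 to 0.46 for the exosome, -0.070 to 0.036 for NMD and -0.89 to -0.79 for decapping. Causes were not tested. In the shallowest CPI-455 library (5401588 fragments), SMG8 and DCP1B rest on 29 and 45 counts.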
